A study of Mus musculus with 10 samples.

Results

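The whole brain of adult male mice was compared after exposure to ethanol or water early in life, in the second of the study's 2 experiments. The arrays were chosen by their titles: 3 ethanol and 3 control arrays, 6 of the 10 in the series. Genes were followed through the 21789 of 35556 probe sets to which the platform annotation gives exactly 1 gene symbol, and these stand for 19938 different genes. The comparison asks how brain gene expression in adulthood differs between mice exposed to alcohol early in life and mice that were not.

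All mice were C57BL/6J, an inbred strain, and all were male. Dams drank 10% ethanol in water, or water alone, from gestational day 0 until their pups were 10 days old, and the offspring were killed by CO2 at postnatal day 70 after same-sex housing. Each array held RNA pooled from 2 brains, so the 3 ethanol pools (called ethanol 1, 2 and 3 after the titles) and the 3 control pools (control 1, 2 and 3) came from 12 mice. The sources used here do not say which pools shared a litter, and a p-value here reflects only how much single pools differ, which may be technical. In experiment 1 each of 2 ethanol and 2 control arrays held 3 brains.

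Ethanol crosses the placenta and reaches the fetal brain, and in the mouse the first days after birth correspond to late human pregnancy, a time of rapid brain growth. The brains sampled here were adult, and the exposure had ended at postnatal day 10. A whole brain mixes neurons, astrocytes, myelin-forming oligodendrocytes, microglia, vessels, the choroid plexus that makes the cerebrospinal fluid, and whatever meninges, pituitary or nasal tissue stays attached. In such bulk RNA, fewer cells of a type and less RNA per cell cannot be told apart.

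Values are deposited log2 levels per probe set, and differences are ethanol minus control on that log2 scale with the standard error (SE) of limma's fit to 3 against 3 arrays. Levels of different genes cannot be compared with each other, since each probe set binds with its own strength. Correlations between the 6 arrays across probe sets ran from 0.992 to 0.996. The male label held: Xist lay near background and Y-linked genes were well expressed on each array. Pan-neuronal genes such as Snap25, Map2 and Syp were strongly expressed and had a median difference of -0.01 over 12 genes. Genes typical of tissue next to the brain were high on single arrays. Pituitary hormones were high on ethanol 2 (and growth hormone on control 3), and nasal and olfactory mucosa genes on control 2 and ethanol 1, with values given further on.

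No probe set passed limma's test at a Benjamini-Hochberg adjusted p of 0.05, 0 of 21789 (0% called), and the smallest adjusted p was 0.163. An unadjusted p under 0.05 was found for 2850 probe sets, 1088 higher in ethanol (4.99% of all tested) and 1762 lower (8.09%). By sign alone 45.1% were higher and 54.9% lower, and throughout, higher and lower refer to the ethanol mean. A linear model without limma's moderation gave 2388 at that level and also 0 after adjustment. The values below are therefore descriptions of single genes and of gene groups, read against these background shares, and none is a change that passed the test.

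Most microRNA genes had a higher mean in ethanol. MicroRNAs are short RNAs cut from a hairpin precursor that repress messenger RNAs by pairing mainly through a seed, bases 2 to 8 of the mature strand. Of 299 microRNA probe sets (297 genes), 248 were higher in ethanol, 78 of them at an unadjusted p under 0.05 (26.1%, against 4.99% of all probe sets), and 1 was lower at that level. The microRNA group was picked out after the values had been seen. In experiment 1, 164 of the 299 had the same sign as in experiment 2, against 57.5% of all probe sets. Their median difference was 0.04 in experiment 1 and 0.09 in experiment 2. The probe sets match the hairpin region, so a primary transcript, a precursor and a mature strand cannot be told apart.

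The densest group lay between Dlk1 and Dio3, an imprinted region of chromosome 12. There the maternal chromosome makes a run of noncoding RNAs (Meg3, Rian, and many microRNAs) and the paternal one the proteins Dlk1, Rtl1 and Dio3. The mature strands from RefSeq (assembly GRCm38.p6) are shown for the 6 microRNA genes of this region with the smallest p, because the difference in experiment 2 is carried by many such genes at once. Capitals mark the seed.
miR-539-5p, chr12:109728136-109728157, plus strand: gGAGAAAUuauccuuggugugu
miR-485-3p, chr12:109734946-109734967, plus strand: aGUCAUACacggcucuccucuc
miR-382-5p, chr12:109733781-109733802, plus strand: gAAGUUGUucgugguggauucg
miR-382-3p, chr12:109733819-109733840, plus strand: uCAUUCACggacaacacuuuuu
miR-540-5p, chr12:109586085-109586107, plus strand: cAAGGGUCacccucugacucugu
miR-540-3p, chr12:109586122-109586141, plus strand: aGGUCAGAggucgauccugg
miR-329-5p, chr12:109713503-109713524, plus strand: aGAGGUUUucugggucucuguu
miR-329-3p, chr12:109713541-109713562, plus strand: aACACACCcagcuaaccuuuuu
miR-337-5p, chr12:109585818-109585839, plus strand: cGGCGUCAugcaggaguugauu
miR-337-3p, chr12:109585850-109585871, plus strand: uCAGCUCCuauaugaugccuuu

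Of 40 microRNA probe sets in the region, 39 were higher in the ethanol pools, with a median difference of 0.23. The exception was Mir136, at -0.05. Of the 39, 21 had an unadjusted p under 0.05, and in 17 the 3 ethanol values lay above the 3 control values without overlap (7.62% of all probe sets did so). The 21 genes have 39 mature strands in RefSeq with 39 different seeds, so no seed is shared among them.

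Mir539 read 8.29, 8.40 and 8.23 in the ethanol pools and 7.83, 7.96 and 8.07 in the control pools. The groups did not overlap, and the difference was 0.36 ± 0.07 (limma, adjusted p = 0.198). Mir382 read 9.77, 9.89 and 9.56 in ethanol and 9.38, 9.34 and 9.45 in control, a difference of 0.35 ± 0.08 with control 3 the nearest to the ethanol pools. Mir485 read 9.21, 9.33 and 9.38 against 9.01, 9.01 and 9.10, a difference of 0.27 ± 0.06.

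Mir380 had the largest difference in the region, 0.58 ± 0.15, and also a wide spread. Its ethanol values were 7.66, 7.92 and 8.08, and its highest control, control 3, was at 7.61, just under ethanol 1. Mir679 read 9.44, 9.46 and 9.49 in ethanol against 8.91, 8.75 and 9.37 in control. Mir300 was at 0.43 ± 0.13, with ethanol values of 8.67, 8.59 and 8.62 and control 3 at 8.56. In both, the ethanol pools were close together while control 3 stood apart from the other controls and near the ethanol pools. Over the 40 probe sets the array medians, relative to the control mean, were 0.22, 0.19 and 0.21 for the ethanol pools and -0.08, -0.07 and 0.13 for the controls. Without control 3 the median difference was 0.30 with 28 probe sets at an unadjusted p under 0.05, and without control 2 it was 0.17 with 14.

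The long noncoding hosts leaned the same way. Rian, which carries many small nucleolar RNAs and microRNAs, read 8.74, 9.02 and 8.72 in ethanol and 8.39, 8.61 and 8.44 in control, a difference of 0.35 ± 0.09. Meg3, a noncoding RNA of the same maternal chromosome, was at 0.19 ± 0.06 and Rtl1, a retrotransposon-derived gene with microRNAs on its opposite strand, at 0.15 ± 0.06, both without overlap between the groups. Dlk1, a ligand-like membrane protein of the Notch family, was at -0.06 ± 0.08 and Dio3, which inactivates thyroid hormone, at 0.08 ± 0.05, both with overlapping groups.

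In experiment 1 the same 40 microRNA probe sets had a median difference of -0.09, and 31 of them were lower in ethanol. The difference between the experiments had an unadjusted p under 0.05 in 20 of the 40, all above experiment 1, against 3.33% of all probe sets. None passed adjustment (the 6 microRNAs shown have an adjusted p of 0.665 in limma's 10-array fit).

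**Figure D1:**
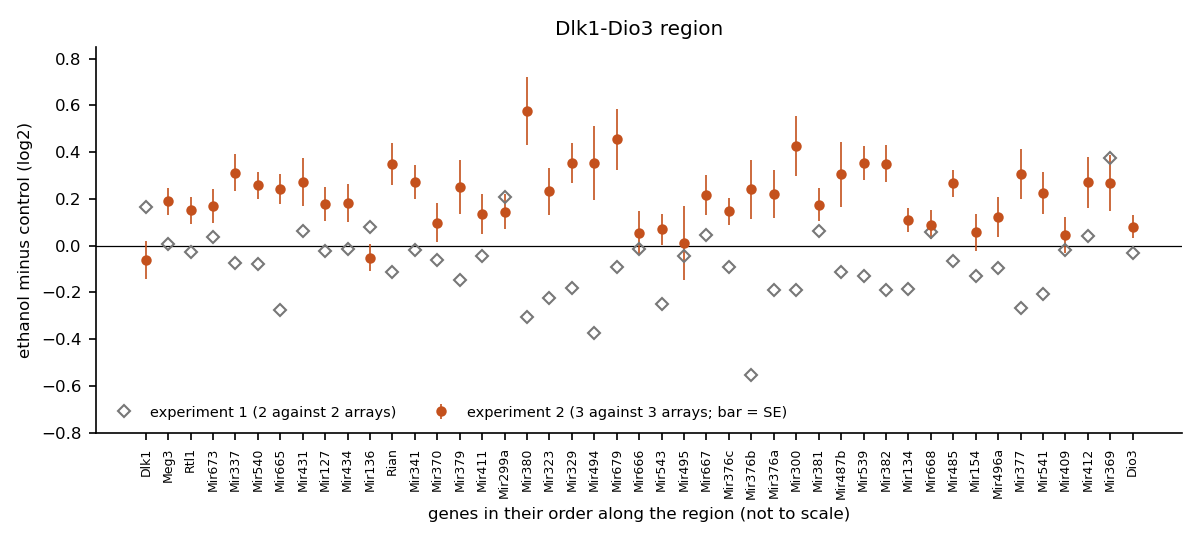
Ethanol minus control (log2) for genes of the Dlk1-Dio3 region in their order along the chromosome. Filled circles are experiment 2 with its SE, open diamonds experiment 1. The experiment 2 values of 39 of 40 microRNA probe sets lie above 0, while 31 of 40 lie below 0 in experiment 1.

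Outside the region, 209 of 259 microRNA probe sets were higher, 57 at an unadjusted p under 0.05. Some microRNA genes share a seed, and 67 seeds were common to 2 or more genes on the array. Shown are the Mir34 and Mir449 family and pairs in which every measured gene had an unadjusted p under 0.05, chosen after the values were seen. Mir19b-1 and Mir19b-2, both at 0.18, are a further pair. Mir329 and Mir377 of these pairs lie inside the chromosome 12 region. Over all microRNA probe sets 26.1% were higher at that p. In the largest group, let-7 genes with Mir98, 6 of 9 probe sets were higher, 1 of them at that p. Mir690, the largest difference named outside the region, is added. Their strands are printed from RefSeq (GRCm38.p6) to show how much of each sequence the members share.
miR-34a-5p, chr4:150068473-150068494, plus strand: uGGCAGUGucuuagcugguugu
miR-34b-5p, chr9:51103610-51103632, minus strand: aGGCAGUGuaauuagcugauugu
miR-449a-5p, chr13:113037549-113037570, plus strand: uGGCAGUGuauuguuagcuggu
miR-449c-5p, chr13:113036008-113036028, plus strand: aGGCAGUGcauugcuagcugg
miR-329-3p, chr12:109713541-109713562, plus strand: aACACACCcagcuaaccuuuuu
miR-362-3p, chrX:7241984-7242005, minus strand: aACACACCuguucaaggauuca
miR-28a-5p, chr16:24827868-24827889, plus strand: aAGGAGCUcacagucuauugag
miR-708-5p, chr7:96249450-96249472, plus strand: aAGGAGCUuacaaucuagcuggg
miR-377-5p, chr12:109740515-109740536, plus strand: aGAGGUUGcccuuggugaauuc
miR-672-5p, chrX:104116228-104116250, minus strand: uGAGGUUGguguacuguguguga
miR-204-5p, chr19:22750610-22750631, plus strand: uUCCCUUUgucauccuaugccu
miR-211-5p, chr7:64205831-64205852, plus strand: uUCCCUUUgucauccuuugccu
miR-138-5p (made from Mir138-1 and Mir138-2), chr8:94324312-94324334, plus strand: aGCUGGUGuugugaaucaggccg
miR-690, chr16:28599940-28599961, minus strand: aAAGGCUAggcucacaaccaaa

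All 5 measured members of the Mir34 and Mir449 family, whose Mir34 genes are known targets of p53, had higher means. Mir34c read 6.09, 5.97 and 5.93 in ethanol and 5.65, 5.70 and 5.61 in control, a difference of 0.34 ± 0.06 (limma, adjusted p = 0.198). Mir449a, at 0.31 ± 0.07, and Mir449c, at 0.33 ± 0.10, also had groups without overlap. Mir34a (0.10 ± 0.06) and Mir34b (0.14 ± 0.11) had overlapping groups.

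Mir690 had the largest difference of the microRNAs named outside the region, 0.56 ± 0.10. It read 9.16, 9.27 and 9.42 in ethanol and 8.69, 8.54 and 8.94 in control, so all the ethanol pools lay above all the controls. Mir669c read 8.60, 8.53 and 8.28 against 7.93, 7.98 and 8.10, a difference of 0.47 ± 0.08. In experiment 1 Mir690 was at -0.08, Mir669c at -0.13 and Mir138-2 at -0.31, while Mir34c was at 0.15. Mir138-2, from a precursor of a microRNA abundant in neurons, read 7.52, 7.54 and 7.50 against 7.11, 7.06 and 7.32, a difference of 0.36 ± 0.07. Its sister gene Mir138-1 was at 0.17 ± 0.07, and the pairs Mir28a and Mir708 (0.22 and 0.39), Mir204 and Mir211 (0.21 and 0.23), Mir377 and Mir672 (0.31 and 0.23), and Mir329 and Mir362 (0.35 and 0.20) each had an unadjusted p under 0.05 for both members, though the groups of Mir211, Mir377 and Mir362 overlapped.

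The share of higher microRNA probe sets grew with signal level. Split by quartile of mean level over all genes, from dim to bright, 12.2%, 28.7%, 42.6% and 71.4% of the microRNA probe sets were higher at an unadjusted p under 0.05. The corresponding shares over all probe sets were 6.68%, 8.54%, 2.99% and 1.76%. The quartiles held 123, 115, 47 and 14 microRNA probe sets, of which 5, 14, 17 and 4 lie in the Dlk1-Dio3 region. The part of that region in the trend was not tested. In experiment 1 the medians of the microRNA probe sets by quartile were 0.07, 0.04, -0.03 and -0.04, with 36, 44, 30 and 8 of them lower in ethanol. Of 58 small nucleolar RNA probe sets, 18 were higher and 40 lower, 5 and 6 of them at an unadjusted p under 0.05. These are 8.62% and 10.3%, against 4.99% and 8.09% of all probe sets. Of 713 long noncoding RNA probe sets, 499 were higher, 86 at that level (12.1%, against 4.99% of all probe sets).

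Signal level and direction went together over the whole array. In the dimmest quartile of probe sets 69.5% had a higher mean in ethanol, and in the next 55.1%. In the following quartile 71.0% were lower, and in the brightest 26.8% were higher. Of the probe sets at an unadjusted p under 0.05, 61.8% were lower. The lower quartiles of the arrays were 5.88, 5.88 and 5.90 in ethanol and 5.85, 5.85 and 5.87 in control, and the upper quartiles 9.25, 9.23 and 9.20 against 9.28, 9.27 and 9.25. The groups did not overlap in either, and a two-sided exact permutation test gave p = 0.1, the smallest that its 20 assignments allow. After quantile normalization, which gives every array the same distribution, 49.4% of the dimmest and 48.3% of the brightest quartile were higher, and 49.2% of those at an unadjusted p under 0.05 were lower. After centring each array on its median that last share was 31.8%. The split between higher and lower genes differed with the scaling, and the part of array-wide signal in any single difference was not tested.

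**Figure D2:**
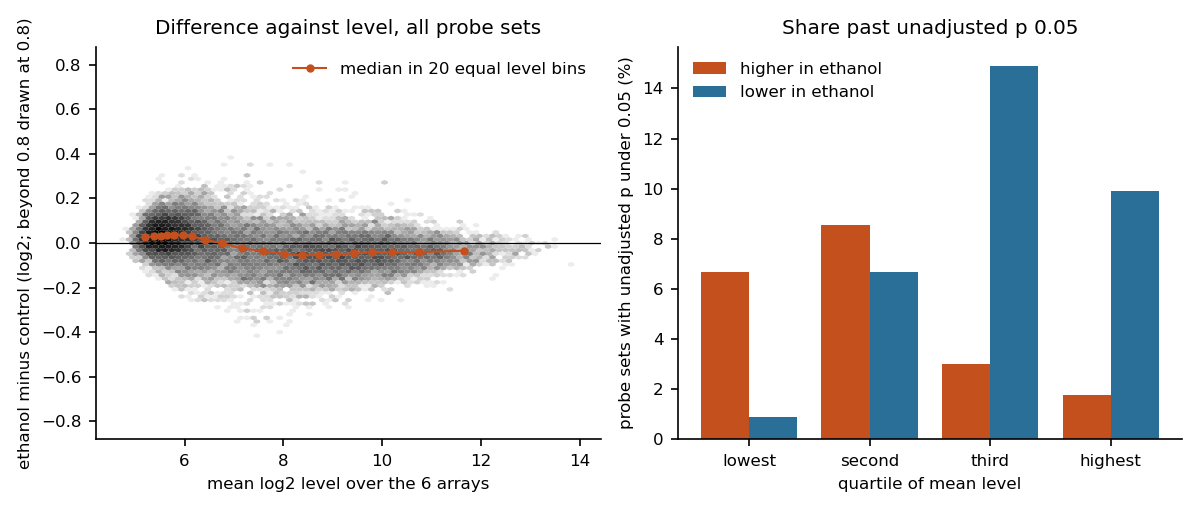
Left, ethanol minus control against mean log2 level for 21789 probe sets, with darker cells for more probe sets and the median in 20 equal bins of level in orange. Right, share of probe sets in each level quartile at an unadjusted p under 0.05, where lower probe sets make up 14.9% of the third quartile and 0.863% of the lowest.

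Among single genes, the 15 lower ones with the smallest p and at least a 1.2-fold difference ranged from 0.31 to 0.42 in size. None passed the test (limma, adjusted p from 0.163 to 0.198), and 11.6% of all probe sets had 3 ethanol values below 3 control values. Serping1, which encodes the C1 inhibitor that blocks the start of the complement cascade, had the smallest p. It read 8.01, 7.97 and 7.95 in ethanol and 8.33, 8.43 and 8.42 in control. The gap between the groups was wider than the spread within either, with a difference of -0.41 ± 0.05 (1.33-fold).

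Nuak1, a kinase of the AMPK family active in axon branching, read 10.77, 10.84 and 10.69 in ethanol and 11.22, 11.14 and 11.17 in control, a difference of -0.42 ± 0.06. Zfp518a, a zinc finger protein, read 7.74, 7.64 and 7.75 against 8.14, 8.15 and 8.05, a difference of -0.41 ± 0.05. Ogn, a small proteoglycan of connective tissue, read 8.11, 8.15 and 8.14 against 8.53, 8.43 and 8.61, a difference of -0.39 ± 0.06. In each of the 3 genes every ethanol pool was below every control pool by more than the range of its own group.

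Ssna1, a microtubule-binding protein, read 7.17, 7.35 and 7.22 in ethanol and 7.71, 7.69 and 7.59 in control, a difference of -0.42 ± 0.06. Dkc1, the pseudouridine synthase of small nucleolar and telomerase ribonucleoproteins, read 8.78, 8.80 and 8.71 against 9.18, 9.06 and 9.10, a difference of -0.35 ± 0.05. Frat1, which binds GSK3 in Wnt signalling, read 7.90, 7.86 and 7.96 against 8.25, 8.25 and 8.20, a difference of -0.33 ± 0.05 (limma, adjusted p = 0.175). These groups were likewise separate.

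The other 8 lower genes serve varied functions. Mrpl42, of the mitochondrial ribosome, was at -0.42 ± 0.07, and Uprt, a relative of uracil salvage enzymes, at -0.42 ± 0.07 with a second probe set at -0.24. Phkg2, a catalytic subunit of phosphorylase kinase, was at -0.37 ± 0.06 and Iqub at -0.35 ± 0.06. Brf2, an RNA polymerase III initiation factor for a small set of genes, was at -0.33 ± 0.06. Tbc1d17, a Rab GTPase activator, was at -0.32 ± 0.06, Tmem107, of the ciliary transition zone, at -0.31 ± 0.05, and Lin9, of the cell-cycle MuvB complex, at -0.31 ± 0.05.

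Among the 15 higher genes, several differences were seen in 1 probe set of a gene and not in its others. Kansl1, a subunit of a histone acetyltransferase complex, read 9.78, 9.79 and 9.64 in ethanol and 9.20, 9.29 and 9.38 in control, a difference of 0.44 ± 0.06. Its other probe set was at -0.02. Adamts9, a secreted metalloprotease, was at 0.37 ± 0.05 in the probe set named, while its 5 others ranged from -0.20 to 0.02. Dnajc13, an endosomal co-chaperone, was at 0.33 ± 0.07 against -0.10 to 0.12 in 14 others.

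Aak1, a kinase of clathrin-coated vesicles, was at 0.29 ± 0.06 with its other probe set at 0.04. Ube2v1, a ubiquitin-conjugating enzyme variant, was at 0.28 ± 0.06 with the others at -0.05 and -0.04. Plb1, a phospholipase, was at 0.40 ± 0.07, and most of its 6 others were also higher, at 0.21, 0.15, 0.12, 0.11, -0.02 and -0.07. Apart from Plb1, the probe sets of each of these genes disagree, so the symbol alone does not describe them.

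The remaining higher genes had 1 probe set each. Prp2, a proline-rich protein gene, had the largest difference, 0.67 ± 0.12, at 8.54, 8.55 and 8.50 in ethanol against 7.95, 7.53 and 8.11 in control. The ethanol pools agreed closely while the controls spread widely. Ghrhr, a pituitary receptor that drives release of growth hormone, read 7.43, 7.60 and 7.58 against 7.09, 7.04 and 7.30, a difference of 0.40 ± 0.08. Pate12 (0.30 ± 0.05), Defb13, a defensin (0.26 ± 0.05), and Pou5f2, a POU transcription factor (0.30 ± 0.06), were also higher. The others are Mir34c, Mir669c, Mir690 and Mir138-2, given above. All of these genes except Prp2, Mir669c and Mir690 lie in the 2 lower quartiles of level, as do Ube2v1 and Adamts9 in the probe sets named. There 69.5% (dimmest) and 55.1% of all probe sets were higher in ethanol.

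**Figure D3:**
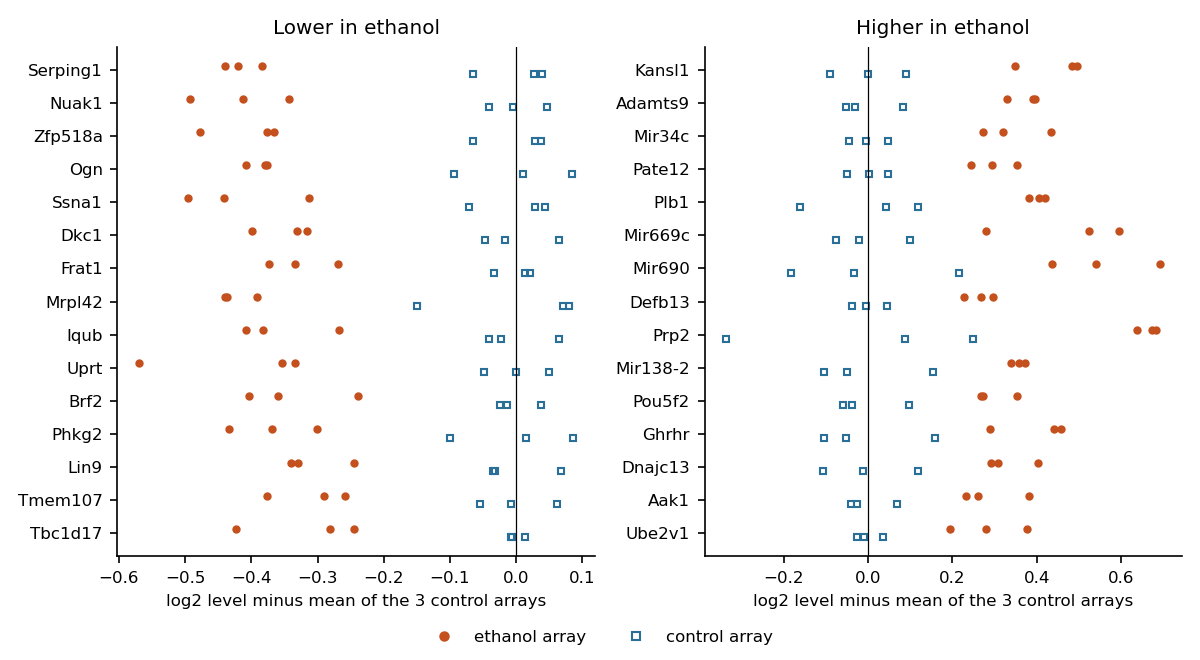
Log2 level of each array minus the mean of the 3 control arrays, for the 15 lower and 15 higher genes with the smallest unadjusted p. Orange circles are ethanol arrays and open blue squares control arrays, and the groups do not overlap in any row because that was required of the genes chosen.

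Gene lists for cell types and functions were then read by counts and medians, with no test of a list. The 24 measured genes of the choroid plexus and ependyma, the epithelium that secretes cerebrospinal fluid and the cells lining the ventricles, were all lower in ethanol. The median difference was -0.19, against -0.01 over all probe sets. An unadjusted p under 0.05 was found for 17, against 8.09% of all, and 15 had groups without overlap, against 11.6% of all. By signal level, 3, 6, 11 and 4 of them lay in the quartiles from dim to bright, where 0.863%, 6.66%, 14.9% and 9.91% of all probe sets were lower at that p.

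Several of the lower genes are transporters, channels and junction proteins of the epithelium. Kcnj13, a potassium channel, read 10.38, 10.12 and 10.09 in ethanol and 10.58, 10.64 and 10.52 in control, a difference of -0.38 ± 0.08. Slc4a5, a sodium bicarbonate cotransporter, read 6.37, 6.31 and 6.41 against 6.68, 6.86 and 6.63, a difference of -0.36 ± 0.07. Cldn1, a tight junction protein, read 7.48, 7.05 and 7.16 against 7.69, 7.58 and 7.52, a difference of -0.37 ± 0.10. Here ethanol 1 lay near the controls and the other 2 ethanol pools well below them.

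Otx2, the homeobox factor that maintains choroid plexus identity, read 7.87, 7.86 and 7.76 in ethanol and 8.07, 8.14 and 8.32 in control, a difference of -0.35 ± 0.07. Kl, the anti-ageing hormone and FGF23 coreceptor klotho, read 7.84, 7.75 and 7.57 against 8.11, 8.16 and 7.99, a difference of -0.37 ± 0.08. Both had separate groups. Ttr, transthyretin, the carrier of thyroid hormone and the most typical product of the tissue, read 12.99, 12.92 and 12.71 against 13.04, 13.11 and 12.95. Its groups overlapped, and the difference was -0.16 ± 0.08.

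Further members without overlap were Sostdc1, a secreted BMP and Wnt antagonist (-0.31 ± 0.09), Rdh5, a retinol dehydrogenase (-0.26 ± 0.08), Lbp, the lipopolysaccharide-binding protein (-0.24 ± 0.06), coagulation factor F5 (-0.20 ± 0.05) and Folr1, which carries folate into the cerebrospinal fluid (-0.20 ± 0.06). Car12, a carbonic anhydrase, was at -0.34 ± 0.10 with ethanol 1 among the controls. The array medians over the list were -0.12, -0.17 and -0.29 in the ethanol pools and 0.01, 0.04 and -0.06 in the controls. Under quantile normalization 24 of 24 stayed lower and under median centring 23. In experiment 1 the median was -0.03 and 16 of 24 were lower. Groups there were without overlap in 7 lower and 4 higher genes, against 4188 lower and 3285 higher of all 21789 probe sets. The difference between the experiments had an unadjusted p under 0.05 in 6 of the 24 (limma), all below experiment 1, against 3.24% of all probe sets. None passed adjustment. The genes of motile cilia, which ependymal cells share, had a median of -0.04, with 13 of 16 lower, and 3 lower and 2 higher at an unadjusted p under 0.05.

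The mitochondrial ribosome, which translates the few proteins encoded in mitochondrial DNA from subunits encoded in the nucleus, had the lowest median of the functional lists. Of its 31 listed genes 28 were lower, with a median of -0.16. Of these, 15 had an unadjusted p under 0.05, and 14 had groups without overlap. Of the 31 genes, 19 lay in the third level quartile and 9 in the brightest, where 938 and 1087 of the 5447 probe sets in each were lower without overlap, and 11.6% over all levels. Taking every gene with an Mrpl or Mrps symbol, 75 of 85 probe sets were lower and 34 (40.0%) passed an unadjusted p of 0.05. This family count was made after the list had been seen. In the third level quartile 21 of 47 probe sets of the family were lower at that p and in the brightest 13 of 29, against 14.9% and 9.91% of all probe sets there.

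Mrpl42, of the large subunit, read 7.26, 7.31 and 7.26 in ethanol and 7.77, 7.55 and 7.78 in control. Mrps14, of the small subunit, read 7.96, 7.81 and 7.89 against 8.28, 8.10 and 8.33, a difference of -0.35 ± 0.07. Mrpl11 read 9.04, 9.05 and 8.97 against 9.30, 9.19 and 9.21, a difference of -0.21 ± 0.05. The groups were separate in all 3, and control 2 was the lowest control for each. Mrpl27 (-0.23 ± 0.06), Mrpl9 (-0.21 ± 0.06), Mrpl50 (-0.20 ± 0.05), Mrps28 (-0.18 ± 0.05) and Mrpl16 (-0.18 ± 0.05) followed, also without overlap. Mrpl2 and Mrpl4 (both -0.05) and Mrpl3 (-0.10) overlapped.

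The promoters of these genes are known to draw on NRF-1 and ETS-family factors. RefSeq (GRCm38.p6) gives a promoter window for 68 genes of the family, and the 250 bases before the start held the NRF-1 core GCGCATGC on either strand (its reverse complement is GCATGCGC) in 8 of them (11.8%), against 3.31% of 15006 protein-coding genes on the array. The ETS core CCGGAAG (reverse complement CTTCCGG) was in 16 (23.5%), against 9.78%. Of the 25 genes with a lower probe set at an unadjusted p under 0.05, 2 held the former and 5 the latter. A match describes letters only. The windows below are those of 3 such genes with a match, with the match in capitals. They were taken in order of p, with genes of a single chromosome left out of the choice.
Mrpl27, chr11:94653541-94653790, plus strand: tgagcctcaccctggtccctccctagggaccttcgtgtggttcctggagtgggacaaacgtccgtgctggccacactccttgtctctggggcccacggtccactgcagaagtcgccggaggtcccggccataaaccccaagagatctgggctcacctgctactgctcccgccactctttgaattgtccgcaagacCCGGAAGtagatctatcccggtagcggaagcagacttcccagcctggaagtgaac
Mrps18b, chr17:35916441-35916690, minus strand: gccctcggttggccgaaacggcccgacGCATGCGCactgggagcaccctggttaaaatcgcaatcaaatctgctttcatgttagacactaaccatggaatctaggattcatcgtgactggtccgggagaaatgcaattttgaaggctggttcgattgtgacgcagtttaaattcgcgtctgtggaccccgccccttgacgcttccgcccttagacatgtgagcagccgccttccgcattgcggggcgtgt
Mrpl51, chr6:125191950-125192199, plus strand: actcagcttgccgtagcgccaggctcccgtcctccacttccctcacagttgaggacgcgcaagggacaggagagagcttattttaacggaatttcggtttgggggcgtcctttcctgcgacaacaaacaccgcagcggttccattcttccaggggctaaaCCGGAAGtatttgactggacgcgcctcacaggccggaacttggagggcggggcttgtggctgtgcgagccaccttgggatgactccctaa

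Mrps18b was at -0.26 ± 0.07 and read 8.87, 8.72 and 8.94 in ethanol against 9.21, 9.07 and 9.03 in control. Mrpl51 was at -0.17 ± 0.05 in the probe set concerned and at 0.04 in its other one. Genes of both subunits were among the lower ones.

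**Figure D4:**
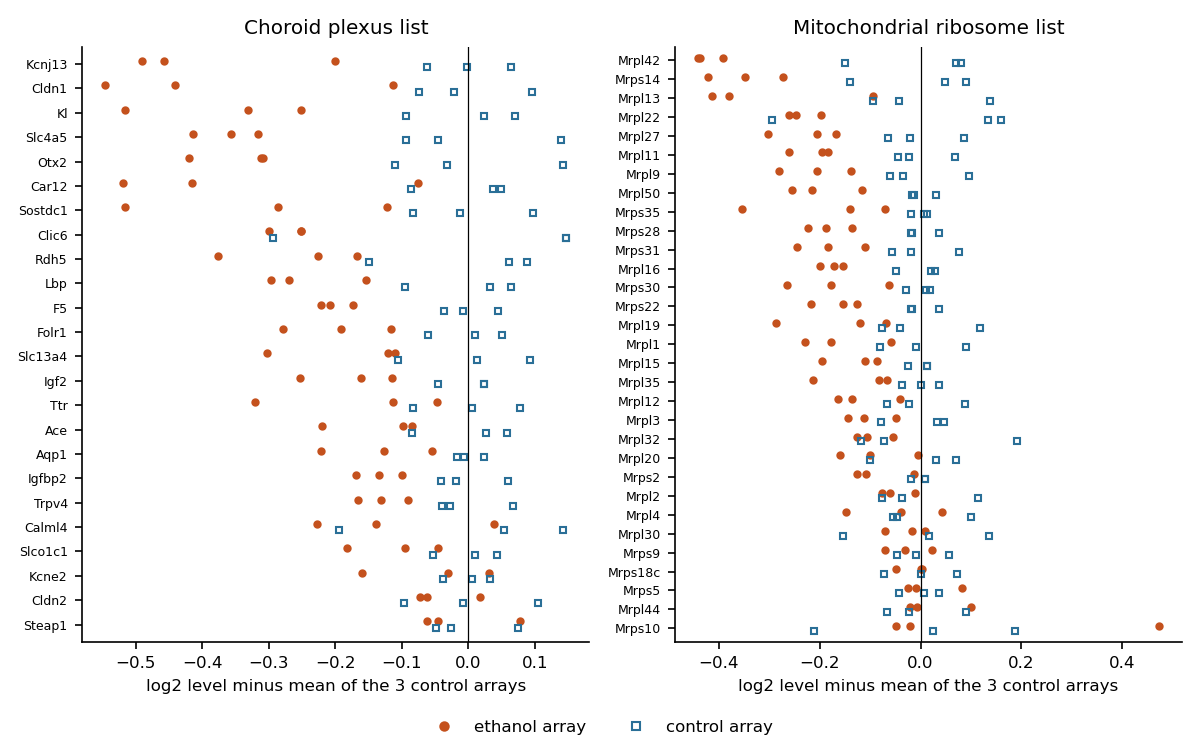
Log2 level of each array minus the control mean for the 24 choroid plexus genes (left) and the 31 mitochondrial ribosome genes (right), ordered by difference. Orange circles are ethanol arrays and open blue squares control arrays. All 24 choroid plexus genes and 28 of 31 mitochondrial ribosome genes have a lower ethanol mean.

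Neighbouring mitochondrial families were counted too, after the ribosome had been seen. Of 31 probe sets of the Timm and Tomm import complexes 27 were lower, 11 at an unadjusted p under 0.05 (35.5%, against 8.09% of all probe sets, 14.9% in the third level quartile and 9.91% in the brightest). The family includes 4 Timm23 probe sets with nearly the same values. Timm23, the inner membrane import channel, read 11.33, 11.23 and 11.39 in ethanol against 11.53, 11.51 and 11.54 in control, a difference of -0.21 ± 0.05, and Timm21 was at -0.37 ± 0.10. Of 48 Nduf probe sets, for complex I of the respiratory chain and its assembly, 44 were lower, 6 at that p (12.5%). Of these 48, 31 lay in the brightest quartile, where 73.2% of all probe sets were lower and 9.91% lower at that p, and 16 in the third, with 71.0% and 14.9%. The count at that p was therefore near that of all probe sets of like level.

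On the list of oxidative phosphorylation 30 of 33 genes were lower, with a median of -0.06 and 5 at an unadjusted p under 0.05 (15.2%). Of the 33, 29 lay in the brightest quartile, with its 73.2% of probe sets lower and 9.91% lower at that p. The genes at that p were Ndufa1 (-0.29 ± 0.09) and Ndufs1 (-0.17 ± 0.05) of complex I, Sdhd, the membrane anchor of complex II (-0.26 ± 0.06), and Cyc1 (-0.13 ± 0.05) and Uqcrc2 (-0.12 ± 0.05) of complex III. Without control 1 there were 3 such genes. Of 217 probe sets for cytosolic ribosomal proteins and their copies 156 were lower, with 10 at that p (4.61%) and a median of -0.03. Proteasome genes had 38 of 46 probe sets lower, 8 at that p (17.4%), and 33 of the 46 lay in the brightest quartile.

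Genes of the meninges and of fibroblasts, which wrap the brain, had 19 of 23 members lower and a median of -0.09. An unadjusted p under 0.05 was found for 7 (30.4%, against 8.09% of all probe sets), all lower and without overlap. Beside Ogn these were Fmod, fibromodulin (-0.36 ± 0.07), Dcn, decorin (-0.26 ± 0.05), Bgn, biglycan (-0.13 ± 0.06), Slc47a1 (-0.21 ± 0.06), the GABA and taurine transporter Slc6a13 (-0.29 ± 0.09) and Igf2, a growth factor made in meninges and choroid plexus (-0.18 ± 0.05). Dcn read 10.37, 10.32 and 10.24 in ethanol and 10.55, 10.61 and 10.54 in control.

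Fibrillar collagens had overlapping groups. Col1a1 read 7.48, 7.60 and 7.62 in ethanol and 7.48, 8.09 and 7.62 in control, and Col1a2 had the same shape, high on control 2 alone. That array also carries nasal genes, and its part in the collagen values was not tested.

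Microglia, the resident macrophages of the brain, had 14 of 18 marker genes lower with a median of -0.10. Of the 18, 7 had an unadjusted p under 0.05, all lower (38.9%, against 8.09% of all probe sets). The third and brightest level quartiles held 11 and 4 of the 18. There 71.0% and 73.2% of all probe sets were lower, and 14.9% and 9.91% lower at that p. Tmem119, a homeostatic microglial protein, read 8.10, 8.13 and 8.07 in ethanol and 8.35, 8.35 and 8.30 in control, a difference of -0.23 ± 0.05. The purine receptors P2ry13 (-0.22 ± 0.06) and P2ry12 (-0.17 ± 0.06), the complement subunits C1qb (-0.21 ± 0.07) and C1qa (-0.18 ± 0.07), the growth factor receptor Csf1r (-0.11 ± 0.04) and Fcrls (-0.24 ± 0.11) were the others. Cx3cr1, the fractalkine receptor, was at 0.01 ± 0.06 and Trem2 at 0.10 ± 0.07, so the list was not uniform. Without control 1 the number at that p dropped from 7 to 2, without control 2 to 3 and under quantile normalization to 3, while without ethanol 2 it was 4.

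In the complement list 5 of 15 genes (33.3%) were lower at an unadjusted p under 0.05, each without overlap, and the median was -0.05. Over all probe sets 8.09% were lower at that p and 11.6% lower without overlap. The third and brightest level quartiles, with 14.9% and 9.91% lower at that p, held 4 and 2 of the 15. After Serping1 came Cd59a, which stops the final membrane attack step (-0.28 ± 0.08), the receptors C3ar1 (-0.19 ± 0.06) and C5ar1 (-0.12 ± 0.05), and C1qa, which stands on both lists. C4b was at 0.00 and Clu, clusterin, at -0.06 ± 0.05. Without control 2 or without ethanol 1 there were 3 such genes.

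Astrocyte and myelin genes had small differences, most of them below 0. Of 17 astrocyte genes 15 were lower with a median of -0.05, and Gfap, the intermediate filament of astrocytes, read 8.76, 8.81 and 8.74 in ethanol against 8.84, 9.07 and 9.02 in control (-0.21 ± 0.07). Aqp4, the water channel of astrocyte end-feet, was at -0.11 ± 0.05. All 17 myelin genes were lower with a median of -0.09. Only Mog (-0.17 ± 0.07) and Enpp6 (-0.16 ± 0.06) had an unadjusted p under 0.05 among them, and Mbp and Mag were at -0.01. In the brightest quartile, which held 15 of the astrocyte and 13 of the myelin genes, 73.2% of all probe sets were lower and 9.91% lower at that p. The 2 genes of 17 at that p in each list (11.8%) are near that share. Under quantile normalization 13 of 17 myelin and 11 of 17 astrocyte genes were lower. With single arrays left out, each list had 1 to 3 genes lower at that p: 1 myelin gene without ethanol 2 or ethanol 3, and 1 astrocyte gene without ethanol 3, control 1 or control 3. Among 14 endothelial genes Eng, a TGF-beta coreceptor of vessels, was at -0.24 ± 0.06 and the glucose transporter Slc2a1 at -0.11 ± 0.05, and the other 12 had no unadjusted p under 0.05. The 2 of 14 (14.3%) compare with 8.09% of all probe sets lower at that p. In the third and brightest quartiles, which held 5 of the 14 each, the shares were 14.9% and 9.91%.

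Genes that handle ethanol and oxidants were then taken. In the list of alcohol metabolism 12 of 18 were lower and 4 had an unadjusted p under 0.05 (22.2%, against 8.09% of all probe sets and 9.91% in the brightest quartile, which held 9 of the 18). Aldh2, which clears acetaldehyde in mitochondria, read 9.02, 8.92 and 8.99 in ethanol and 9.17, 9.20 and 8.99 in control (-0.15 ± 0.06), with control 3 among the ethanol values. Adhfe1 was at -0.16 ± 0.06, Aldh1a1 at -0.14 ± 0.05 and Adh1 at -0.26 ± 0.12, this last with control 2 the highest array at 6.34 and the others between 5.73 and 5.86. Cat, catalase, a main route of ethanol oxidation in brain, was at -0.15 ± 0.07 with overlap. Without ethanol 2 or without control 2 there were 0 genes lower at that p (limma), without ethanol 3 or without control 1 there were 2, and under either scaling alternative there was 1 lower.

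Of 22 antioxidant genes 21 were lower, with a median of -0.08, and 4 had an unadjusted p under 0.05 (18.2%, against 8.09% of all probe sets). The brightest quartile held 13 of the 22, and there 73.2% of all probe sets were lower and 9.91% lower at that p. In the third, with 6 of the 22, these shares were 71.0% and 14.9%. Nqo1, a quinone reductase induced through Nrf2, read 6.03, 5.88 and 5.96 in ethanol against 6.25, 6.46 and 6.16 in control (-0.33 ± 0.08). Prdx3, the mitochondrial peroxiredoxin, was at -0.21 ± 0.05, and the secreted enzymes Gpx3 and Sod3 at -0.25 ± 0.09 and -0.17 ± 0.06. Groups did not overlap in these 4. Sod1 and Sod2 were at -0.05 ± 0.05 and -0.08 ± 0.05. Without control 2 there were 2 such genes and without control 3 there were 7.

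In the retinoic acid list, a pathway that shares dehydrogenases with ethanol, 15 of 20 genes were lower with a median of -0.07. Rbp4, the plasma carrier of retinol, read 8.73, 8.76 and 8.71 in ethanol against 8.98, 8.94 and 8.90 in control (-0.20 ± 0.05). The nuclear receptor Rxrb was at -0.19 ± 0.05, without overlap, while Rara, Rarb and Rarg were between -0.06 and 0.01 and overlapped. Rdh5 and Aldh1a1 were the other 2 genes at an unadjusted p under 0.05, and both also stand on lists above. These 4 of 20 (20%) compare with 8.09% of all probe sets lower at that p. The third level quartile held 9 of the 20, and there 71.0% of all probe sets were lower and 14.9% lower at that p. In the second, with 8 of the 20, these shares were 44.9% and 6.66%.

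Neuronal activity genes had the highest median of the lists. Of 35 immediate early genes, induced within minutes by synaptic activity, 27 were higher and the median was 0.16. An unadjusted p under 0.05 was found for 6 higher ones, against 4.99% of all probe sets, and for 1 lower. Egr2, a zinc finger factor, read 7.99, 7.22 and 6.82 in ethanol and 6.50, 6.73 and 6.59 in control (0.74 ± 0.23). The groups were separate, though ethanol 3 was close to control 2.

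Arc, which acts at synapses to remove AMPA receptors, read 10.10, 9.66 and 9.05 against 8.78, 9.28 and 8.90 (0.62 ± 0.23). Nr4a1 read 10.53, 10.06 and 9.42 against 9.18, 9.69 and 9.50 (0.55 ± 0.24), and Nr4a3 was at 0.48 ± 0.16. In these, ethanol 1 was the highest array, ethanol 2 next, and ethanol 3 among the controls. Egr1 (0.26 ± 0.10) and Trib1 (0.17 ± 0.07) were the other 2, and Fos (0.40 ± 0.24) and Npas4 (0.40 ± 0.35) overlapped.

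Nptx2, a synaptic pentraxin also induced by activity, was lower at 8.33, 8.41 and 8.23 against 8.70, 8.52 and 8.57 (-0.27 ± 0.07). The array medians of the list were 0.25, 0.12 and -0.03 in ethanol and -0.06, 0.06 and 0.00 in control. Without ethanol 1 the median difference was 0.05 with 2 genes higher at that p, and 2 were also left without ethanol 2, without control 1 or without control 3 (medians 0.14, 0.12 and 0.10). Without ethanol 3 the median was 0.22 with 17 genes, and without control 2 it was 0.15 with 10.

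Brain region lists showed single pools that stood apart. Granule cells of the cerebellum had 16 of 17 genes lower with a median of -0.12, but the array medians were 0.01, -0.05 and -0.31 in ethanol against 0.06, -0.04 and -0.04 in control. Gabra6, a GABA receptor subunit of these cells, read 10.74, 10.80 and 10.36 against 10.88, 10.78 and 10.74, so ethanol 3 alone was low. Ppp1r17, of Purkinje cells, was low on the same pool, at 8.60 against 9.10 and 9.09 in the other 2 ethanol pools and 9.17 to 9.38 in control (-0.33 ± 0.12). Without ethanol 3 the granule cell median was -0.03, and without control 1 it was -0.08.

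Striatal genes had 12 of 16 lower and a median of -0.07. The neuropeptide genes Tac1 (-0.15 ± 0.05) and Penk (-0.12 ± 0.05) and Syndig1l (-0.15 ± 0.06) were lower at an unadjusted p under 0.05 (3 of 16, 18.8%). Over all probe sets 8.09% were lower at that p, and 9.91% in the brightest quartile, which held 9 of the 16. Under either scaling alternative, without ethanol 2 or without control 3, 0 genes of the list were lower at that p (limma). Without ethanol 1 or control 1 there was 1. On the monoamine list the serotonin receptor Htr7 (-0.20 ± 0.05), the serotonin transporter Slc6a4 (-0.19 ± 0.07) and monoamine oxidase Maob (-0.17 ± 0.06) had groups without overlap and an unadjusted p under 0.05 (3 of 18 genes, 16.7%, against 8.09% of all probe sets). The third and brightest level quartiles held 8 and 5 of the 18, and there 14.9% and 9.91% of all probe sets were lower at that p. The share of the list is near that of the third quartile. The control values of Htr7 were 7.24, 7.28 and 7.19, all above the highest ethanol value, 7.06. Dopamine genes such as Th (-0.20 ± 0.13), Slc6a3 and Slc18a2 overlapped.

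In the hypothalamic list neurotensin, Nts (-0.23 ± 0.08), and galanin, Gal (-0.12 ± 0.05), were lower, and the steroidogenic factor Nr5a1 (0.13 ± 0.05) and Gnrh1 (0.16 ± 0.06) higher at an unadjusted p under 0.05, all without overlap. These are 2 of 21 genes each way (9.52%), against 8.09% of all probe sets lower and 4.99% higher, and 6.68% and 8.54% higher in the 2 dimmer level quartiles, which held 5 and 9 of the 21. Shares this close to the background are no result about the list. Without ethanol 1 there were 0 higher and 1 lower at that p (limma), and with any other array left out 2 were higher, with 3 lower without ethanol 3 and 1 lower without each of the others. Cortical excitatory, hippocampal, interneuron and olfactory bulb lists had medians between -0.03 and -0.02, with at most 2 genes each way at an unadjusted p under 0.05. Among 19 imprinted genes the maternal RNAs Rian and Meg3, with Rtl1 and Mest (0.11 ± 0.05), were higher and Igf2 and Grb10, an inhibitor of insulin receptor signalling (-0.15 ± 0.06), lower, while Peg3 was at 0.09 ± 0.05. At an unadjusted p under 0.05, 4 of the 19 were higher (21.05%, against 4.99% of all probe sets). At that p 2 were lower (10.53%, against 8.09% of all probe sets), a share near the background. Rian, Meg3 and Rtl1 belong to the Dlk1-Dio3 region described above. Without single arrays, between 2 and 4 of the imprinted genes were higher at that p.

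**Figure D5:**
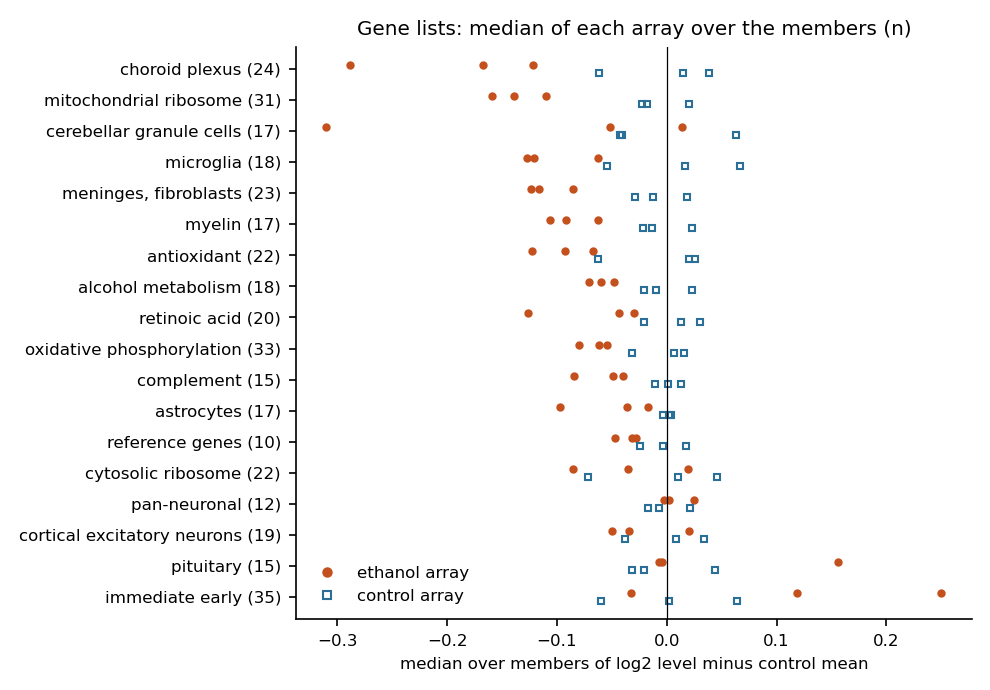
Median over the members of each list of log2 level minus the control mean, for each of the 6 arrays, with the number of measured genes in parentheses. Orange circles are ethanol arrays and open blue squares control arrays. The ethanol arrays lie below the controls for the choroid plexus (-0.12 to -0.29 against -0.06 to 0.04) and the mitochondrial ribosome. They also do so, by smaller gaps, for most other lists drawn. Among these are microglia, myelin and the reference genes (-0.05 to -0.03 against -0.02 to 0.02, with 9 of 10 genes lower). Ethanol 3 alone is low for cerebellar granule cells, and ethanol 1 is highest for immediate early genes.

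The 5 largest differences each way were in genes high on 1 or 2 arrays, and none of them had an unadjusted p under 0.05. Gh, growth hormone of the anterior pituitary, read 7.75, 13.48 and 7.63 in ethanol and 7.51, 7.15 and 9.48 in control (1.57 ± 1.36). Prl, prolactin, read 6.44, 11.67 and 6.62 against 6.54, 6.47 and 6.87 (1.62 ± 1.13), and Cga, the shared subunit of the glycoprotein hormones, was high on ethanol 2 only, at 10.44 against 6.54 to 6.72 elsewhere. Pomc was also highest there, at 7.14 against 5.79 to 6.00 on the other arrays. Without ethanol 2 the differences of Gh, Prl and Cga turned to -0.358, -0.0945 and -0.0952.

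Nasal genes marked control 2. Bpifb9b read 10.01 there against 5.86 to 6.45 on the other 5 arrays, and Bpifb9a 8.58 against 5.73 to 5.85. Bpifa1, a secreted airway protein, read 9.44 on control 2 and 6.80 on ethanol 1, against 4.94 to 5.37 elsewhere, and Scgb1c1 and the olfactory P450 Cyp2g1 had the same shape. Ethanol 1 was the highest for Lcn11, at 9.46, and Scgb2b27, at 7.63, and for the odorant-binding protein Obp1a, at 10.06 with 7.68 on control 2. Over the 21 measured genes of the olfactory mucosa 0 had an unadjusted p under 0.05 (limma).

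Experiment 1 gave a comparison on arrays that experiment 2 does not share. Over all probe sets 57.5% had the same sign of ethanol minus control in both experiments. Of the 1762 lower in experiment 2 at an unadjusted p under 0.05, 66.7% were also lower in experiment 1, and of the 1088 higher, 60.1% were higher there. By level quartile, from dim to bright, the same sign was seen in 59.4%, 56.0%, 59.3% and 55.5% of all probe sets. Experiment 1 had a like tilt with level. From dim to bright, 1469 of 5448 and then 2299, 3850 and 3661 of 5447 probe sets were lower in ethanol there. A shared tilt of this kind raises the share with the same sign, and its part in these shares was not tested. Separate groups in both experiments were found in the same direction for 4.29% and in opposite directions for 1.95%. Limma's fit of all 10 arrays gave 0 probe sets whose difference between the experiments passed an adjusted p of 0.05 (smallest 0.269), with 1432 at an unadjusted p under 0.05 (6.57%), 3.33% above experiment 1 and 3.24% below it. Since the deposited levels of each probe set had been set to the same mean in both experiments, only the differences within each were compared.

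The genes with the smallest p in experiment 2 had smaller differences in experiment 1. The 15 lower genes had a median of -0.37 in experiment 2 and -0.06 in experiment 1, with 12 of 15 keeping the sign. The 15 higher ones had 0.36 and 0.05, with 8 of 15. These genes were chosen for their values in experiment 2, so those values are a description. Mrpl42 was as low in experiment 1 (-0.45, groups separate) as in experiment 2. Defb13 had a like difference in experiment 1 (0.25), but with overlapping groups, at 7.42 and 6.90 in ethanol against 6.84 and 6.99 in control. Serping1 (-0.09), Nuak1 (-0.04) and Frat1 (-0.01) were near 0 there.

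Some genes had separate groups in opposite directions in the 2 experiments. Pde4d, a cyclic AMP phosphodiesterase, was at 0.30 in experiment 2 and -0.47 in experiment 1 in 1 of its 3 probe sets. Cd46, a complement regulator, was at 0.16 and -0.34, and Gpatch8 at 0.12 and -0.38 in 1 of its 5 probe sets. The other 4 of Gpatch8 were at 0.14, 0.12, 0.32 and -0.07 in experiment 2 and at -0.04, -0.12, -0.12 and -0.13 in experiment 1. The differences between the experiments were 0.77 ± 0.13, 0.50 ± 0.09 and 0.50 ± 0.10, with adjusted p of 0.443, 0.598 and 0.598 in limma. Of the lists above, the choroid plexus median was -0.19 in experiment 2 and -0.03 in experiment 1, and the microglial median -0.10 and 0.04. The granule cell median was -0.12 and -0.30, the immediate early median 0.16 and 0.08, and the mitochondrial ribosome median -0.16 and -0.04. Whether these medians differ between the experiments was not tested.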

How the data were processed

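The deposited log2 values of 35556 probe sets per array were used as given. Per the labels' protocols, 200 ng of total RNA was labelled for Affymetrix whole-transcript arrays. The submitters' processing notes list Partek 6.6. What was done for background, normalization and batch, and which genome build was used, is not stated in those notes or the labels. For every probe set the deposited means of the 2 experiments agree to within 5.83e-05, so a difference between experiments had been removed before deposit.

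Of 23410 annotated probe sets, 1621 with several symbols and 12146 unlisted ones were left out. The 21789 with 1 symbol were fitted with limma 3.58.1 in R 4.3.3 (lmFit, eBayes, Benjamini-Hochberg) on the 6 arrays, with 4 residual degrees of freedom and 5.25 from the prior. The median SE was 0.0586 log2 units, and the number of arrays limits the precision. The comparison with experiment 1 used all 10 arrays. The procedure was tested on simulated data. Lists use 1 probe set per gene, the brightest, and their symbols were matched through RefSeq names.

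Genes named are up to 15 each way by smallest p (at least 1.2-fold, no overlap; receptors for odours and pheromones, clone names and predicted genes left out), the 5 largest differences each way, the 6 smallest p between experiments, and of each list described its first 4 members and up to 8 more by smallest p. MicroRNAs, families by symbol and other probe sets were named after their values were seen. The members and lists were chosen with earlier results of these data known. The alternatives tried were median centring, quantile normalization, all probe sets, 2 level filters, 1 probe set per gene, another prior, no moderation, array weights, a replicate block, the 10-array fit, a threshold of 0.10 and each array left out. Figures were drawn with matplotlib 3.10.9.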

Additional observations from a re-analysis of the deposited data

Results flagged for a closer look

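In 8 genes named above the ethanol and control groups were separate in both experiments but in opposite directions. The test of the difference, experiment 2 minus experiment 1 in limma's 10-array fit, passed no adjusted p of 0.05 for any of them (adjusted p from 0.443 to 0.616). The difference was 0.773 for Pde4d, 0.6632 for Mir138-2, 0.5924 for Kansl1, 0.5037 for Cd46, 0.4973 for Gpatch8, 0.4656 for Aak1 and 0.4145 for Pate12, each above experiment 1, and -0.5771 for Ssna1, below it. Over all probe sets 424 (1.95%) had separate groups in opposite directions and 935 (4.29%) in the same direction.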

How the results depend on the processing

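With 3 pools against 3, the count of 0 at an adjusted p of 0.05 held under the alternatives run, with 1 exception: a trended, robust prior called 2, Nuak1 (-0.42, adjusted p = 0.0178 in limma) and the predicted gene Gm10548 (0.41, adjusted p = 0.0344). Counts at an unadjusted p under 0.05 moved. Quantile normalization gave 1093 lower, and median centring 1994 higher and 931 lower. Keeping only probe sets above the 25th percentile of level gave 694 higher, and above its median 280, where fewer genes were tested, and all 35556 probe sets 2327 higher. The share higher in the dimmest quartile was 49.4% under quantile normalization and 84.3% under centring. In the brightest quartile it was 48.3%, 44.5% and, over all probe sets, 32.4%. The median of the mitochondrial ribosome was -0.105 under quantile normalization and -0.124 under centring, and that of microRNAs 0.12 under centring and 0.135 and 0.228 under the 2 filters. With 1 array left out in turn, the counts ran from 763 to 1384 higher and from 1198 to 2009 lower, and 0 passed adjustment. The share higher ran from 65.3% to 69.9% in the dimmest quartile and from 25.7% to 31.8% in the brightest. List medians ran from -0.216 to -0.153 (choroid plexus), -0.155 to -0.118 (mitochondrial ribosome), 0.0526 to 0.22 (immediate early) and 0.0805 to 0.105 (microRNA). Signs turned without ethanol 2 for Gh (-0.358), Prl (-0.0945) and Cga (-0.0952), without ethanol 1 for Lcn11 (-0.215) and Scgb2b27 (-0.0364), and without control 2 for Scgb1c1 (0.317), Bpifa1 (0.484) and Cyp2g1 (0.229). Over single arrays left out, these differences ran from -0.358 to 2.57 for Gh, -0.0945 to 2.52 for Prl, -0.0952 to 1.86 for Cga, -0.215 to 1.82 for Lcn11, -0.0364 to 1.38 for Scgb2b27, -1.59 to 0.317 for Scgb1c1, -1.76 to 0.484 for Bpifa1 and -1.58 to 0.229 for Cyp2g1. Where no reason is named, the cause was not tested.

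The replicate numbers of the titles are not said to pair the pools. Correlations of same-numbered deviations from the group mean were 0.006, -0.146 and 0.23. With 3 pools per group, each centred on its group mean, such correlations cannot show whether the pools are paired. With the replicate number as a block, 1289 probe sets were higher and 2000 lower at an unadjusted p under 0.05, 0 passed adjustment, and the smallest adjusted p in limma was 0.158. Of the ethanol pools only ethanol 3 correlated best with the control of its own number. The block changed no call.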
